A study of Mus musculus with 12 samples.

Results

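CC chemokines are small secreted proteins that draw leukocytes out of the blood and along tissue. Described here are 10 of their genes, Ccl2, Ccl3, Ccl4, Ccl5, Ccl6, Ccl7, Ccl9, Ccl11, Ccl12 and Ccl24, chosen by gene symbol from the 52858 genes listed for each library. RNA sequencing covered 12 libraries of male mouse hearts aged 3 to 5 months, 3 hearts in each of 4 groups, perfused outside the body with Krebs-Henseleit buffer on a Langendorff apparatus. C57-non-IR hearts (C57BL/6J) and Slit2-non-IR hearts (Slit2-Tg) were perfused for 80 min without interruption. C57-IR and Slit2-IR hearts went through ischemia/reperfusion (IR), namely perfusion for 20 min, global no-flow ischemia for 20 min and reperfusion for 40 min. Slit2-Tg mice were heterozygous for a full-length human Slit2 cDNA behind the CMV promoter, which is not restricted to heart cells. The line was made by injecting hybrid oocytes of C57 and CBA mice, and the study names C57BL/6J as its background strain. Backcrossing is not described, so effects of the transgene and of any remaining CBA sequence cannot be told apart between the genotypes. Slit2 is a secreted guidance protein that acts through Robo receptors. Genotype is stated in the labels, and whether a heart had IR follows from the sample letters, read by the description of the perfusion groups. Since the hearts were perfused with buffer, leukocytes that reach a heart from circulating blood during reperfusion in the animal are missing from this model.

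Values are FPKM, fragments scaled by gene length and by a size factor of each library, so that levels of different genes stand on a scale per length. Between 16601154 and 24841291 reads lay on genes in a library. Differences were tested with limma on log2(FPKM + 1) over 15258 genes that passed a filter on low values, with the 12 libraries in one fit, and p-values were adjusted over all of these genes. All 10 members passed this filter, and 9 of them had at least 10 reads in every library. Ccl5 was the exception and is described with its reads. It passed the filter only through libraries after IR, namely C57-IR replicates 1 and 2 and Slit2-IR replicate 2 (12, 24 and 16 reads). Counts of members that include Ccl5 are therefore not independent of IR. Fold changes are differences of log2(FPKM + 1) with their standard error (SE), a scale that understates the change of low genes.

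Some libraries stand apart from the rest. Transcripts of lung epithelium (Sftpc, Sftpa1, Sftpb, Sftpd, Scgb1a1 and Ager) summed to 5.72 to 12.4 FPKM in 5 libraries, namely C57-non-IR replicates 2 and 3, C57-IR replicates 2 and 3 and Slit2-non-IR replicate 2, and to 0.121 to 0.279 FPKM in the other 7. In Slit2-IR replicate 1, 7 atrial markers summed to 1758 FPKM, against 26.6 to 246 elsewhere. Markers of ventricular cardiomyocytes summed to 14456 to 22172 FPKM, as the labelled tissue has. Results are given with all libraries and, where they rest on those with lung transcripts, without them.

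Chemokines form a gradient on the surface of vessels and matrix, and leukocytes follow it through receptors that span the membrane and couple to G proteins. In the heart, resident macrophages, fibroblasts, endothelial cells and injured muscle can make CC chemokines, and transcription of the inducible ones depends on NF-kB and AP-1 downstream of TNF, interleukin-1 and Toll-like receptors. Ccl2, Ccl7 and Ccl12 attract monocytes through Ccr2. Ccl3, Ccl4 and Ccl5 attract monocytes and T cells. Ccl11 and Ccl24 are eotaxins, which attract eosinophils through Ccr3. Ccl6 and Ccl9 are rodent chemokines that act mainly through Ccr1 and are made by macrophages and other myeloid cells without a stimulus.

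The family is named for adjacent cysteines near the start of the secreted protein. The coding sequence of each member around these cysteine codons is shown because it is the feature that defines the family, taken from GENCODE vM21 on GRCm38, 54 bases from 5′ to 3′, with the pair of cysteine codons in capitals.
Ccl2: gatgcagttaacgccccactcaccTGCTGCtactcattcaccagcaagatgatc
Ccl7: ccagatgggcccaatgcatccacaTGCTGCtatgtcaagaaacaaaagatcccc
Ccl12: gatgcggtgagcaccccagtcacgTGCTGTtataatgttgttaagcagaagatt
Ccl11: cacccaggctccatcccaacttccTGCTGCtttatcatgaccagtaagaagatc
Ccl24: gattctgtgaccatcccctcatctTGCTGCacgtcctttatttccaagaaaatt
Ccl3: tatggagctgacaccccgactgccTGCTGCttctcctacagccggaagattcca
Ccl4: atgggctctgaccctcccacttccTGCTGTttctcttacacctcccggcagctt
Ccl5: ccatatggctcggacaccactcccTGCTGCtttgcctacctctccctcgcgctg
Ccl6: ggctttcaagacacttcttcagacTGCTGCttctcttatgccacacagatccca
Ccl9: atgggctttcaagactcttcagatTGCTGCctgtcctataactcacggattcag
The pair lay in exon 2 of 3 in 8 members, as in Ccl2 at chr11:82036506-82036511 on the plus strand. In Ccl6 and Ccl9 the transcript had 4 exons and the pair lay in exon 3, at chr11:83589386-83589391 for Ccl6 and chr11:83575926-83575931 for Ccl9, both on the minus strand. The coding sequence of Ccl24 held 2 such pairs, and the second, at codons 33 and 34, is shown. The longest stretch that the transcripts of any 2 members shared without a mismatch was 25 bases, between Ccl6 and Ccl9, followed by 23 bases between Ccl2 and Ccl7.

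On GRCm38, 9 members lie on chromosome 11 in a pair of clusters. Ccl2 (ENSMUSG00000035385, 82035571 to 82037453), Ccl7 (ENSMUSG00000035373, 82045712 to 82047525), Ccl11 (ENSMUSG00000020676, 82057823 to 82062955) and Ccl12 (ENSMUSG00000035352, 82101845 to 82103400) form the first and are all on the plus strand. The second holds Ccl5 (ENSMUSG00000035042, 83525778 to 83530518), Ccl9 (ENSMUSG00000019122, 83572919 to 83578636), Ccl6 (ENSMUSG00000018927, 83587882 to 83593087) and Ccl3 (ENSMUSG00000000982, 83647844 to 83649355) on the minus strand, and Ccl4 (ENSMUSG00000018930, 83662584 to 83664683) on the plus strand. Ccl24 (ENSMUSG00000004814) is on chromosome 5, from 135569937 to 135573049 on the minus strand.

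IR was accompanied by higher levels of Ccl2, Ccl7, Ccl3, Ccl4 and Ccl11 in hearts of both genotypes. Averaged over the genotypes, these 5 of 10 members rose (limma adjusted p under 0.05), against 3.48% of all genes tested, and 7 of 10 were higher at an unadjusted p under 0.05, against 7.92% of all genes. In C57BL/6J hearts alone, Ccl3 was the single member past the adjusted threshold, which 0.439% of genes passed, and 6 members (Ccl2, Ccl3, Ccl4, Ccl5, Ccl7 and Ccl11) were higher at an unadjusted p under 0.05, as were 4.54% of genes. In that comparison 4 of 6 tested adipose markers were also higher at an unadjusted p under 0.05 (values follow with the other cell markers). In Slit2-Tg hearts limma passed 0 members at the adjusted threshold (0.505% of genes), and 5 members, those above without Ccl5, were higher at an unadjusted p under 0.05 (6.15% of genes). Levels after and without IR did not overlap for the 6 members named in C57BL/6J hearts (6.74% of genes separated upward) and for the 5 in Slit2-Tg hearts (8.64%). Ccl5 counts among the 7 and the 6, although only libraries after IR brought it past the filter. With at least 10 reads required in every library, which leaves Ccl5 out, limma gave 5 of 9 members in C57BL/6J hearts a higher level at an unadjusted p under 0.05. At that level 570 of 13189 genes were higher. Over both genotypes 6 of 9 members were, beside 1064 of 13189 genes. The median log2 fold change of the 10 members was 1.12 in C57BL/6J and 0.91 in Slit2-Tg hearts, beside medians of 0.00126 and 0.00517 over all genes. The study placed Ccl2, Ccl3, Ccl4, Ccl5, Ccl7, Ccl11 and Ccl24 in its own list of genes higher in C57-IR hearts, drawn from these libraries, so their direction is not independent evidence. Its cutoff was a P value under 0.05, which Ccl24 missed here (limma unadjusted p = 0.0661).

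**Figure D1:**
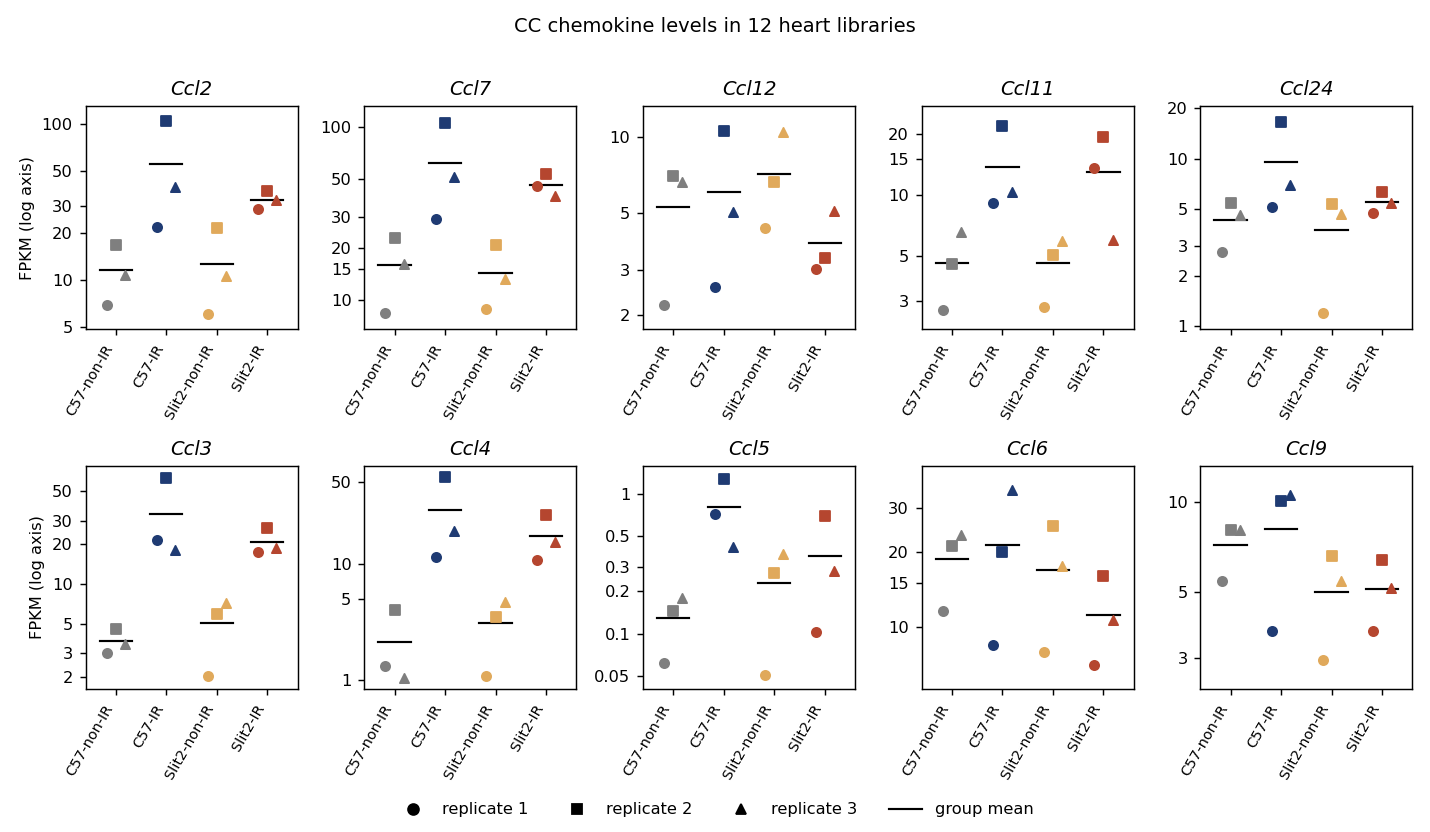
FPKM of each member in the 12 libraries (log axis, a scale of its own for each gene), with a point for each library and a line for the group mean. Ccl2, Ccl7, Ccl3 and Ccl4 lie higher in every IR library than in any library without IR, whereas Ccl6, Ccl9 and Ccl12 overlap between the groups.

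Ccl7 and Ccl2, monocyte attractants that lie next to each other on chromosome 11, had the highest medians of the 10 members. Ccl2 stood at 6.91, 16.8 and 10.8 FPKM in C57-non-IR replicates 1 to 3 and at 21.9, 105 and 39.6 FPKM in C57-IR replicates 1 to 3. In Slit2-Tg hearts it stood at 6.01, 21.6 and 10.6 FPKM without IR and at 28.7, 37.0 and 32.5 FPKM after IR. All 6 libraries after IR lay above all 6 without it, and C57-IR replicate 2 was far above the others. On the log2 scale the difference after IR was 1.96 (SE 0.53, limma adjusted p = 0.1797) in C57BL/6J hearts, 1.46 (SE 0.53, limma adjusted p = 0.304) in Slit2-Tg hearts and 1.71 (SE 0.38, limma adjusted p = 0.0331) over both. The last of these was lost in 8 of 12 fits that left out 1 library, with adjusted p up to 0.0789, and was kept without C57-non-IR replicate 2, C57-IR replicate 1 or 2, or Slit2-non-IR replicate 2.

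Ccl7 held 8.43, 22.9 and 16.1 FPKM in C57-non-IR and 29.4, 106 and 51.6 FPKM in C57-IR replicates 1 to 3. Its Slit2-Tg levels were 8.91, 20.7 and 13.1 FPKM without IR and 45.8, 53.4 and 40.05 FPKM after IR. Again no library without IR reached the lowest library after IR. The fitted log2 fold change was 1.82 (SE 0.45, limma adjusted p = 0.126) in C57BL/6J hearts, 1.70 (SE 0.45, limma adjusted p = 0.131) in Slit2-Tg hearts and 1.76 (SE 0.32, limma adjusted p = 0.0119) over both. Across the 12 libraries the Ccl7 level was 0.961 to 1.60 times that of Ccl2.

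Ccl12, which binds the same receptor and lies in the same cluster, showed no detectable difference after IR. C57BL/6J hearts had 2.19, 6.99 and 6.67 FPKM without IR and 2.56, 10.6 and 5.05 FPKM after it, in the order of replicates 1 to 3. Slit2-Tg hearts had 4.40, 6.62 and 10.4 FPKM without IR and 3.03, 3.33 and 5.10 FPKM after it. Levels overlapped in both genotypes. The log2 fold change after IR was 0.12 (SE 0.46, limma unadjusted p = 0.801) in C57BL/6J and -0.72 (SE 0.46, limma unadjusted p = 0.144) in Slit2-Tg hearts. The ratio of Ccl2 to Ccl12 was 1.01 to 3.26 in the 6 libraries without IR and 6.38 to 11.1 in the 6 after IR.

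Ccl3 and Ccl4, ligands that inflamed macrophages make early, showed the largest fold changes of the 10 members in both genotypes. Ccl3 had 2.99, 4.596 and 3.55 FPKM in C57-non-IR and 21.4, 62.3 and 17.9 FPKM in C57-IR replicates 1 to 3. Slit2-Tg hearts held 2.01, 5.89 and 7.22 FPKM without IR and 17.3, 26.3 and 18.6 FPKM after IR. All 6 libraries after IR were above all 6 without it. The mean of C57BL/6J hearts was 3.71 ± 0.816 FPKM without and 33.9 ± 24.7 FPKM after IR (SD, n = 3). The log2 fold change was 2.68 (SE 0.45, limma adjusted p = 0.0391) in C57BL/6J hearts, 1.95 (SE 0.45, limma adjusted p = 0.0880) in Slit2-Tg hearts and 2.32 (SE 0.32, limma adjusted p = 0.00349) over both. The call in C57BL/6J hearts held in 8 of 20 alternative settings, of which 1, the fit of 7 libraries, has a single library in each C57BL/6J group. Over the 12 fits without 1 library, the limma adjusted p was 0.0214 to 0.170. The call was kept in 4 of these, those without C57-IR replicate 1, Slit2-non-IR replicate 1 or Slit2-IR replicate 2 or 3.

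Ccl4 stood at 1.33, 4.001 and 1.05 FPKM in C57-non-IR and at 11.5, 55.4 and 18.9 FPKM in C57-IR replicates 1 to 3. Its levels in Slit2-Tg hearts were 1.10, 3.48 and 4.73 FPKM without IR and 10.7, 26.1 and 15.4 FPKM after IR. No library without IR reached the lowest one after it. On the log2 scale the difference after IR was 3.06 (SE 0.57, limma adjusted p = 0.0501) in C57BL/6J hearts, 2.20 (SE 0.57, limma adjusted p = 0.125) in Slit2-Tg hearts and 2.63 (SE 0.40, limma adjusted p = 0.00524) over both.

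Ccl5, a product of T and NK cells, was near the limit of detection. C57BL/6J libraries held 1 to 3 reads without IR and 9 to 24 after it, and Slit2-Tg libraries 1 to 9 and 2 to 16. In FPKM, C57BL/6J replicates 1 to 3 had 0.0612, 0.145 and 0.181 without IR and 0.716, 1.27 and 0.417 after it, with no overlap. Slit2-Tg hearts had 0.0502, 0.271 and 0.370 FPKM without IR and 0.103, 0.692 and 0.280 FPKM after it, which overlap. Scaled for depth, the reads after IR were 6.03 times those without it in C57BL/6J hearts (95% interval 2.70 to 15.8, 45 against 7 reads) and 1.56 times in Slit2-Tg hearts (95% interval 0.793 to 3.13, 24 against 16 reads). These exact intervals cover counting error only. The fitted log2 fold change was 0.65 (SE 0.18, limma unadjusted p = 0.00431, adjusted p = 0.192) in C57BL/6J and 0.13 (SE 0.18, limma unadjusted p = 0.493) in Slit2-Tg hearts.

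Ccl11 (eotaxin), an attractant of eosinophils, had 2.71, 4.54 and 6.51 FPKM in C57-non-IR and 9.11, 21.9 and 10.3 FPKM in C57-IR replicates 1 to 3. In Slit2-Tg hearts it had 2.81, 5.05 and 5.91 FPKM without IR and 13.6, 19.3 and 5.97 FPKM after IR. Slit2-IR replicate 3 stood barely above the highest Slit2-non-IR library. The fitted log2 fold change was 1.36 (SE 0.43, limma adjusted p = 0.280) in C57BL/6J hearts, 1.23 (SE 0.43, limma adjusted p = 0.276) in Slit2-Tg hearts and 1.30 (SE 0.30, limma adjusted p = 0.0433) over both. The last of these passed in 7 of 19 alternative settings. Leaving out any library but C57-IR replicate 1 or Slit2-IR replicate 3 ended it, with an adjusted p up to 0.0992.

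Ccl24 (eotaxin-2), a further eosinophil attractant, had 2.77, 5.47 and 4.64 FPKM in C57-non-IR and 5.18, 16.6 and 7.01 FPKM in C57-IR replicates 1 to 3. Its Slit2-Tg levels were 1.19, 5.39 and 4.70 FPKM without IR and 4.75, 6.35 and 5.47 FPKM after IR. In each genotype the lowest library after IR lay below the highest without it. The log2 fold change was 0.89 (SE 0.43, limma unadjusted p = 0.0661) in C57BL/6J, 0.59 (SE 0.43, limma unadjusted p = 0.200) in Slit2-Tg hearts and 0.74 (SE 0.31, limma unadjusted p = 0.0347, adjusted p = 0.262) over both.

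For Ccl6 and Ccl9, the ligands with an additional exon, no difference after IR was detectable at the spread of these hearts. Ccl6 had 11.6, 21.1 and 23.3 FPKM in C57-non-IR and 8.49, 19.99 and 35.3 FPKM in C57-IR replicates 1 to 3. Slit2-Tg hearts had 7.95, 25.3 and 17.6 FPKM without IR and 7.08, 16.0 and 10.6 FPKM after it. Replicate 1 was the lowest library of each group. Ccl9 had 5.42, 8.06 and 8.06 FPKM in C57-non-IR and 3.71, 10.1 and 10.6 FPKM in C57-IR replicates 1 to 3. Its Slit2-Tg levels were 2.96, 6.61 and 5.42 FPKM without IR and 3.70, 6.41 and 5.17 FPKM after it, again with replicate 1 lowest in each group. The log2 fold change of Ccl6 was 0.032 (SE 0.51, limma unadjusted p = 0.951) in C57BL/6J and -0.48 (SE 0.51, limma unadjusted p = 0.363) in Slit2-Tg hearts. That of Ccl9 was 0.066 (SE 0.35, limma unadjusted p = 0.852) and 0.051 (SE 0.35, limma unadjusted p = 0.886). The ratio of Ccl3 to Ccl6 was 0.152 to 0.411 in the 6 libraries without IR and 0.508 to 3.11 in the 6 after it.

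**Figure D2:**
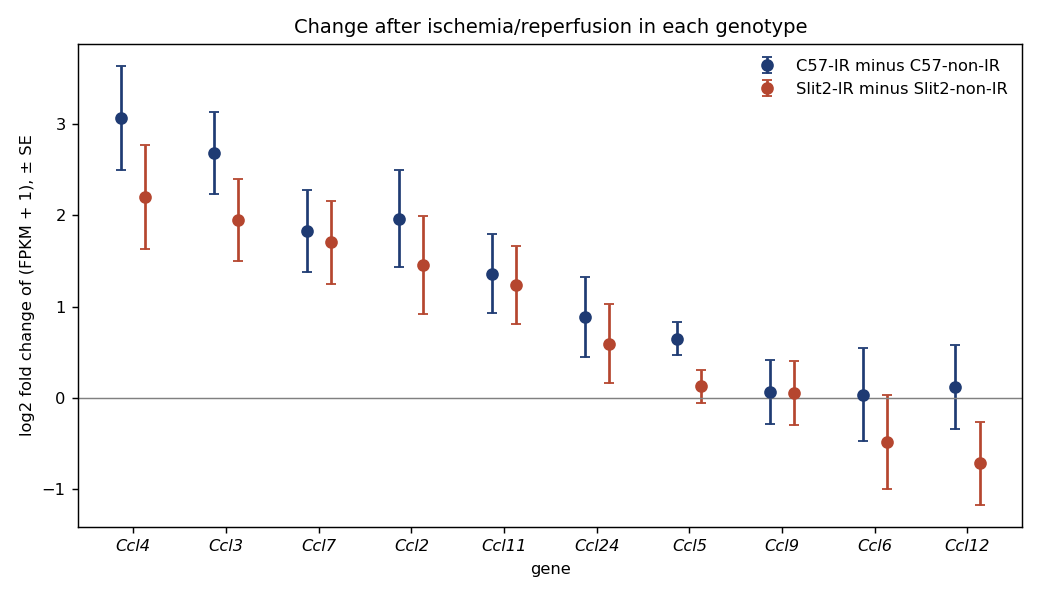
Difference of log2(FPKM + 1) between hearts after and without IR for each member, with points for the estimate in C57BL/6J and in Slit2-Tg hearts and bars for ± 1 SE (3 libraries per group). Ccl4 lies highest in both, at 3.06 and 2.20, and Ccl9 lies at 0.066 and 0.051.

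Libraries with the same replicate number deviated together in Slit2-Tg hearts. With the replicate number as a block, limma gave 4 members (Ccl2, Ccl3, Ccl4 and Ccl7) an adjusted p under 0.05 for Slit2-IR against Slit2-non-IR, in place of 0, while 1.27% of all genes passed. Their adjusted p-values with the block were 0.0416, 0.0309, 0.0192 and 0.0174 in that order. In all 7 members had an unadjusted p under 0.05 with the block, as did 13.7% of genes. Among them limma gave Ccl12 an unadjusted p of 0.0359, at its log2 fold change of -0.72, and Ccl24 one of 0.0447, at 0.59, and neither passed the adjusted threshold.

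In sum over the 10 genes, C57BL/6J libraries held 44.4 to 94.6 FPKM without IR and 114 to 409 FPKM after it, and Slit2-Tg libraries 37.4 to 101 and 135 to 195 FPKM. Ccl6 and Ccl9 made up 28.7% to 38.8% of this sum in the 6 libraries without IR and 7.36% to 23.3% in the 6 after it. Ccl3 and Ccl4 together made up 5.68% to 14.9% without IR and 18.7% to 28.8% after it. Ccl2 and Ccl7 accounted for 29.6% to 42.0% and 45.0% to 55.3%. None of these 3 shares overlapped between libraries with and without IR. They are parts of one sum, and Ccl2, Ccl3, Ccl4 and Ccl7 were already given as not overlapping, so this is no separate result.

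Whether the transgene went with other CC chemokine levels after IR was compared next. The estimate was lower in Slit2-IR hearts for all 10 members, with a median log2 fold change of -0.47 beside -0.000158 over all genes. By limma, 0 members passed the adjusted threshold (0.0459% of genes did) and 1 of 10, Ccl5, had an unadjusted p under 0.05 (3.16% of genes did). For 0 members did the Slit2-IR libraries all lie below those of C57-IR (3.43% of genes). The Ccl5 estimate was -0.40 (SE 0.18, limma unadjusted p = 0.0482), on 2 to 16 against 9 to 24 reads, and 5 of 19 alternatives kept it under 0.05. Ccl5 had passed the filter only through C57-IR replicates 1 and 2 and Slit2-IR replicate 2. Ccl6 was at -0.73 (SE 0.51, limma unadjusted p = 0.182), Ccl24 at -0.56 (SE 0.43, limma unadjusted p = 0.228), Ccl9 at -0.50 (SE 0.35, limma unadjusted p = 0.181) and Ccl2 at -0.46 (SE 0.53, limma unadjusted p = 0.408). Ccl6 and Ccl24 are in the study's own list of genes lower in Slit2-IR hearts, which was drawn from these libraries. Ccl24 is also among the genes the study gives as raised by IR and lowered by Slit2. The study's cutoff was a P value under 0.05, with no adjustment named, and neither gene reached that level unadjusted in this fit. With the replicate number as a block, 3 of 10 members had an unadjusted p under 0.05 by limma (Ccl5 with 0.0207, Ccl6 with 0.0182 and Ccl9 with 0.0127), as did 4.52% of genes, and 0 passed the adjusted threshold.

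These lower estimates changed with the libraries included. C57-IR replicate 2 was the highest of all 12 libraries for 8 of 10 members, and C57-IR replicate 3 for Ccl6 and Ccl9. Without C57-IR replicate 2, Ccl2, Ccl3, Ccl4, Ccl7, Ccl11 and Ccl12 were higher in Slit2-IR hearts, with log2 fold changes of 0.14, 0.055, 0.14, 0.24, 0.25 and 0.028. Without Slit2-IR replicate 1, which held atrial transcripts, all 10 estimates stayed negative. In a fit of the 7 libraries with little lung RNA, added after the data were seen, 8 of 10 members were higher in the 3 Slit2-IR libraries than in C57-IR replicate 1, the one left of its group, which is assumed to vary like the other groups. Ccl7 was at 0.63 (limma unadjusted p = 0.0462, a level that 5.22% of genes passed), Ccl2 at 0.55, Ccl6 at 0.30 and Ccl24 at 0.072, while Ccl5 (-0.36) and Ccl3 (-0.065) stayed lower.

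**Figure D3:**
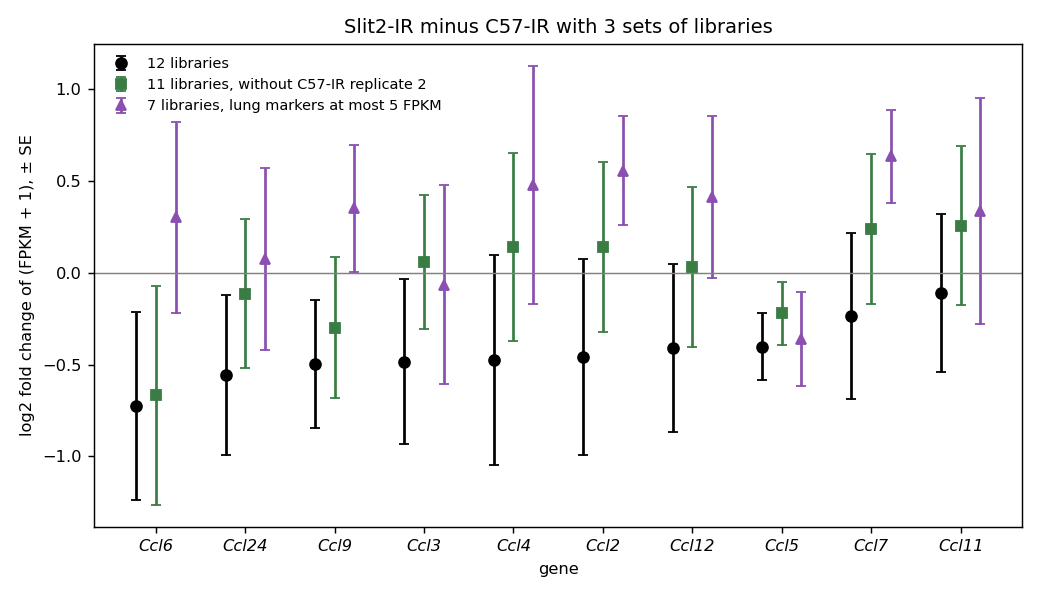
Difference of log2(FPKM + 1) between Slit2-IR and C57-IR hearts for each member, with bars for ± 1 SE, in the fit of 12 libraries, without C57-IR replicate 2, and in the 7 libraries with at most 5 FPKM of summed lung markers. All 10 estimates lie below 0 with 12 libraries, and 8 of 10 lie above 0 with 7, of which 1 is a C57-IR library.

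The IR response was examined in these 7 libraries too, which hold 2 Slit2-non-IR and 3 Slit2-IR libraries but a single library, replicate 1, of each C57BL/6J group. In Slit2-Tg hearts 5 members had an unadjusted p under 0.05 by limma (4.78% of genes were higher at that level). Their log2 fold changes were 1.90 for Ccl2, 2.10 for Ccl3, 2.32 for Ccl4, 1.99 for Ccl7 and 1.31 for Ccl11. For C57BL/6J hearts the difference is one between 2 libraries, with no replicate check, and no p-value is given. It was 1.53 for Ccl2, 2.49 for Ccl3, 2.42 for Ccl4, 1.69 for Ccl7 and 1.44 for Ccl11. Averaged over both genotypes, with the single C57BL/6J libraries assumed to vary like those of Slit2-Tg hearts, 5 members had an unadjusted p under 0.05, against 4.75% of genes that were higher at that level, and limma passed 0 members at the adjusted threshold.

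Without IR, limma found 0 members different between the genotypes at the adjusted threshold (0.0393% of genes) or at an unadjusted p under 0.05 (3.18% of genes). The median log2 fold change was 0.030. The smallest unadjusted p belonged to Ccl9, at -0.48 (SE 0.35, limma unadjusted p = 0.193), while Ccl12 was at 0.42 (SE 0.46, limma unadjusted p = 0.372) and Ccl4 at 0.39 (SE 0.57, limma unadjusted p = 0.509). In the 7 libraries with little lung RNA, 1 member, Ccl12, had an unadjusted p under 0.05 by limma, as did 8.07% of genes, on 2 Slit2-non-IR libraries against 1 C57-non-IR library. The difference of the IR responses, Slit2-Tg minus C57BL/6J, was negative for all 10 members, but by limma 0 of 10 had an unadjusted p under 0.05 (1.85% of genes did). Ccl5 came nearest, with -0.52 (SE 0.26, limma unadjusted p = 0.0675), then Ccl12 with -0.83 (SE 0.64, limma unadjusted p = 0.222) and Ccl4 with -0.86 (SE 0.81, limma unadjusted p = 0.307). A difference in the IR response of the members between the genotypes was thus not shown.

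Over the 12 libraries some members varied together. Pearson's r of log2(FPKM + 1) was 0.98 between Ccl2 and Ccl7, 0.98 between Ccl3 and Ccl4, and 0.94 between Ccl2 and Ccl4. For Ccl6 it was 0.91 with Ccl9, 0.27 with Ccl2 and 0.040 with Ccl3. With group means removed, r was 0.97 for Ccl2 with Ccl7, 0.96 for Ccl6 with Ccl9 and 0.66 for Ccl6 with Ccl2. These are descriptions over 12 libraries that share groups and scaling. The tested genes most like Ccl2 outside the members were Marcksl1 (r of 0.964), Ereg (r of 0.954), Dusp2 (r of 0.953), Casp4 (r of 0.952) and Birc3 (r of 0.9503). Those most like Ccl6 were Hsd11b1 (r of 0.948), Adgrl4 (r of 0.941), Gda (r of 0.939), Ms4a6d (r of 0.935) and Lyve1 (r of 0.931), the last a gene of resident cardiac macrophages and lymphatic vessels.

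In bulk tissue, fewer cells of a type and less RNA per cell cannot be told apart. Of 12 macrophage markers (Adgre1, Cd68, Cd163, Mrc1, Lyve1, C1qa, C1qb, C1qc, F13a1, Folr2, Cx3cr1 and Fcgr1), limma gave 0 an unadjusted p under 0.05 after IR in either genotype or between Slit2-IR and C57-IR hearts. Estimates after IR were above 0 for 5 of 12 in C57BL/6J hearts (median log2 fold change -0.057) and for 1 of 12 in Slit2-Tg hearts (median -0.207). For Slit2-IR against C57-IR, 1 of 12 was above 0 (median -0.147). The summed level of the 12 in C57BL/6J libraries was 182 to 330 FPKM without IR and 144 to 329 FPKM after it, and in Slit2-Tg libraries 206 to 291 and 171 to 241 FPKM. None of the 12 was at 0 in any library. The sum had a Pearson's r of 0.90 with Ccl6, 0.83 with Ccl9, 0.75 with Ccl12, 0.25 with Ccl2 and -0.031 with Ccl3, on log scales. For the sum of the 6 lung markers r was 0.84 with Ccl6, 0.83 with Ccl9 and 0.33 with Ccl2. Sums of other cell markers varied with these members too. With 8 endothelial markers r was 0.72 for Ccl6 and 0.83 for Ccl9, and with 7 adipose markers it was 0.77 and 0.81. Fabp4 is in both of these lists, so their correlations are not independent of each other. With 8 ventricular cardiomyocyte markers r was -0.76 for Ccl6, -0.60 for Ccl9 and -0.81 for Ccl12. All 5 libraries with lung transcripts lay above the other 7 for Ccl6 and for Ccl9. The lung sum was 0.121 to 0.257 FPKM in Slit2-IR and 0.246 to 11.3 FPKM in C57-IR libraries. The part of any of these cell types in the Ccl6, Ccl9 and Ccl12 values was not tested.

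**Figure D4:**
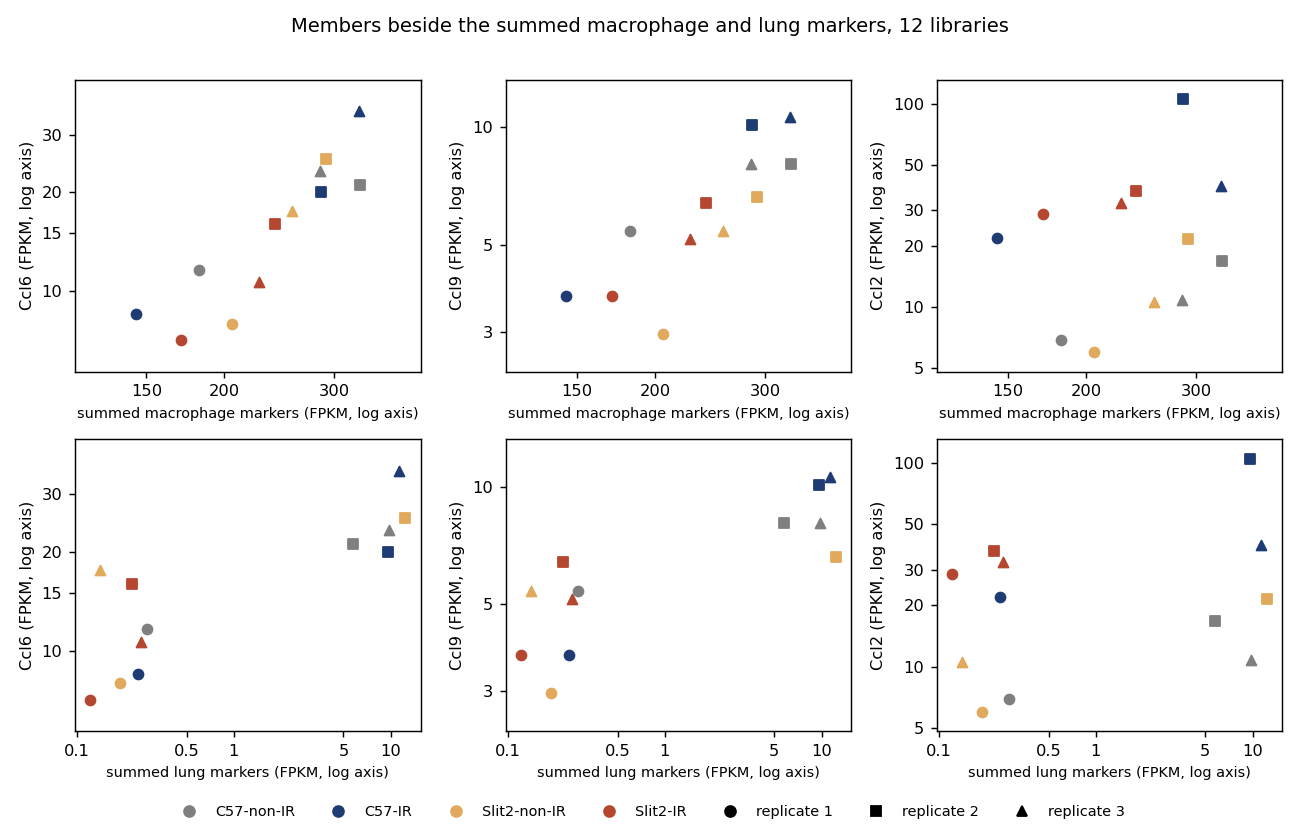
FPKM of Ccl6, Ccl9 and Ccl2 (vertical, log axis) against the summed FPKM of 12 macrophage markers and of 6 lung markers (horizontal, log axes), 1 point per library, with groups told apart by colour. Ccl6 and Ccl9 climb with the macrophage sum (r of 0.90 and 0.83), and the 5 libraries with 5.72 to 12.4 FPKM of lung markers lie above the other 7 for both.

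Adipose markers moved with IR in C57BL/6J hearts. Of 6 tested, 4 were higher there at an unadjusted p under 0.05 by limma (Cfd with 0.0377, Adipoq with 0.0417, Retn with 0.0139 and Plin1 with 0.0334), 0 passed the adjusted threshold, and the median log2 fold change was 0.68. In Slit2-Tg hearts limma gave 0 of 6 an unadjusted p under 0.05. Fabp4, which endothelial cells also make, was 89.6% to 100% of the summed level of the list in every library. That sum was 154 to 223 FPKM in C57-non-IR, 97.0 to 191 FPKM in C57-IR, 100.1 to 173 FPKM in Slit2-non-IR and 97.1 to 181 FPKM in Slit2-IR libraries. The other 6 markers (Adipoq, Plin1, Cfd, Retn, Cidec and Lep), summed without Fabp4 after the data were seen, had 0, 0.861 and 0.292 FPKM in C57-non-IR and 0.122, 14.2 and 17.3 FPKM in C57-IR replicates 1 to 3. Slit2-Tg libraries had 1.41, 6.68 and 8.01 FPKM without IR and 10.1, 1.71 and 0.772 FPKM after it. In C57-IR replicate 1 this sum was within the range of C57-non-IR. Ccl2, Ccl3, Ccl4, Ccl5, Ccl7 and Ccl11 lay above all 3 C57-non-IR libraries there too. That follows from the lack of overlap given above for these members and is no separate result. Over the 12 libraries r with the log2 of this sum plus 1 was 0.56 for Ccl2, 0.46 for Ccl3, 0.39 for Ccl6 and 0.36 for Ccl9. The share of adipose tissue in the larger values of C57-IR replicates 2 and 3 was not tested.

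Markers of circulating leukocytes were scarce. The 6 monocyte markers, Ly6c2 and Chil3 among them, summed to at most 0.916 FPKM in a library, 8 neutrophil markers to at most 2.12 FPKM, and 8 T and NK cell markers to at most 1.24 FPKM. The neutrophil sum was highest in C57-non-IR replicate 3. S100a8, an abundant neutrophil transcript picked from these 8 after its values were seen, was listed at 0 in all 6 C57-IR and Slit2-non-IR libraries. The 2 tested neutrophil markers, Mmp9 and Csf3r, had estimates above 0 after IR in both genotypes. For these, limma gave 0 of 2 an unadjusted p under 0.05 after IR in either genotype. Of 8 eosinophil and mast cell markers, 4 were tested and limma gave 0 an unadjusted p under 0.05 after IR in either genotype.

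Group means of Ccr1, Ccr2 and Ccr3 stood below those of all these ligands other than Ccl5. The Ccl5 mean was below that of Ccr1 in every group, and below that of Ccr2 without IR but not after it. Ccr2, the receptor of Ccl2, Ccl7 and Ccl12, had 0.455 ± 0.208 FPKM without and 0.350 ± 0.0479 FPKM after IR in C57BL/6J hearts, and 0.489 ± 0.150 and 0.242 ± 0.124 FPKM in Slit2-Tg hearts (SD, n = 3). After IR its log2 fold change in Slit2-Tg hearts (-0.26, SE 0.11, limma unadjusted p = 0.0394, adjusted p = 0.403) was below 0 at an unadjusted p under 0.05 and missed the adjusted threshold. Ccr1 had 0.609 ± 0.250 FPKM without and 0.846 ± 0.501 FPKM after IR in C57BL/6J hearts, and 0.694 ± 0.238 and 0.636 ± 0.132 FPKM in Slit2-Tg hearts. Its limma unadjusted p after IR was 0.342 in C57BL/6J and 0.809 in Slit2-Tg hearts. Ccr3, the receptor of the eotaxins, had at most 3 reads in any library. Of 12 CC chemokine receptor genes listed, 5 passed the filter. Ccrl2, which binds chemerin and does not signal, was the most abundant of those named, with 5.70 ± 0.964 FPKM without and 8.64 ± 1.23 FPKM after IR in C57BL/6J hearts, and 5.61 ± 1.06 and 7.09 ± 0.763 FPKM in Slit2-Tg hearts (log2 fold change in C57BL/6J hearts 0.53, SE 0.15, limma unadjusted p = 0.00518, adjusted p = 0.208).

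Atypical chemokine receptors bind chemokines without G protein signalling and remove them. Ackr2, the scavenger of inflammatory CC chemokines, had 0.499 ± 0.190 FPKM without and 1.249 ± 0.477 FPKM after IR in C57BL/6J hearts, and 0.594 ± 0.185 and 1.40 ± 0.453 FPKM in Slit2-Tg hearts (SD, n = 3), and it rose over both genotypes (log2 fold change 0.57, SE 0.12, limma adjusted p = 0.0287). Ackr3, which binds CXC chemokines, had a log2 fold change over both of 0.52 (limma unadjusted p = 0.00487, adjusted p = 0.0893). Of 4 genes listed, 3 were tested and 1 passed the adjusted threshold.

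Among 14 other CC chemokines listed, 4 passed the filter, namely Ccl8, Ccl21a, Ccl25 and Ccl27a, and limma passed 0 at the adjusted threshold in any IR comparison. Ccl8, a monocyte attractant, had 1.74 ± 1.32 FPKM without and 3.58 ± 1.44 FPKM after IR in C57BL/6J hearts, and 3.25 ± 0.746 and 2.57 ± 0.946 FPKM in Slit2-Tg hearts (SD, n = 3). Its log2 fold change after IR was 0.81 in C57BL/6J hearts (limma unadjusted p = 0.0375) and -0.28 in Slit2-Tg hearts (limma unadjusted p = 0.438), and the difference of these responses was -1.08 (limma unadjusted p = 0.0465). Ccl21a, a chemokine of lymphatic endothelium, was at 1.81 after IR in Slit2-Tg hearts (limma unadjusted p = 0.0263, adjusted p = 0.347), but it has near-identical copies between which reads can be split.

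Cytokines and receptors that drive inducible chemokines were also higher after IR. Over both genotypes, 11 of 14 tested genes of this list were higher at an unadjusted p under 0.05 by limma, beside 7.92% of all genes. Of them, 4 (Tnf, Tlr2, Il1a and Myd88) rose past the adjusted threshold, which 3.48% of all genes passed. Il1a had 1 to 4 reads in each library without IR and 11 to 65 after it. It passed the filter only through libraries after IR, so counts that include it are not independent of IR. The list was chosen with earlier results of these data known, so these counts are not independent evidence. Tnf, a cytokine that activates NF-kB, had 1.70 ± 0.576 FPKM without and 14.6 ± 11.3 FPKM after IR in C57BL/6J hearts, and 2.02 ± 0.733 and 10.1 ± 3.45 FPKM in Slit2-Tg hearts (SD, n = 3, log2 fold change over both 2.09, SE 0.29, limma adjusted p = 0.00395). Il1b, a further activator, was at 1.27 in C57BL/6J hearts (limma unadjusted p = 0.0107, adjusted p = 0.305). Il4ra, a receptor for a cytokine that induces eotaxins, was at 0.65 over both (limma unadjusted p = 0.00570, adjusted p = 0.0977). Between Slit2-IR and C57-IR hearts limma gave 0 of these an unadjusted p under 0.05.

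All 12 listed NF-kB and AP-1 factors and feedback inhibitors were tested. Over both genotypes 11 were higher after IR at an unadjusted p under 0.05 by limma, beside 7.92% of all genes. Of the 12, 8 rose past the adjusted threshold, which 3.48% of all genes passed. This list too was chosen with earlier results of these data known, so its counts are not independent evidence. Atf3, a stress-induced factor, had 62.5 ± 5.67 FPKM without and 409 ± 214 FPKM after IR in C57BL/6J hearts, and 67.5 ± 18.6 and 408 ± 175 FPKM in Slit2-Tg hearts (SD, n = 3, log2 fold change over both 2.55, SE 0.26, limma adjusted p = 0.000847). Tnfaip3, an NF-kB target that shuts the pathway off, had 0.777 ± 0.207 FPKM without and 5.18 ± 1.89 FPKM after IR in C57BL/6J hearts, and 1.05 ± 0.273 and 5.63 ± 1.56 FPKM in Slit2-Tg hearts (log2 fold change over both 1.71, SE 0.16, limma adjusted p = 0.000575). Relb, Nfkb2, Rela, Nfkbiz, Jun and Junb were the others that passed. Between Slit2-IR and C57-IR hearts limma gave 0 of 12 an unadjusted p under 0.05, and 11 of 12 estimates were above 0.

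Sequence before the start was at hand for Ccl3, Ccl6, Ccl9 and Ccl12 (RefSeq, GRCm38.p6), which allows Ccl3, higher after IR, to be set beside members that were not. The 150 bases before the start are shown for Ccl3 (chr11:83649379-83649528, minus strand), Ccl9 (chr11:83578637-83578786, minus strand) and Ccl12 (chr11:82101695-82101844, plus strand), 5′ to 3′, with motif matches in capitals. The start used for Ccl3 lies upstream of the gene boundary given above, 83649355, so its window does not adjoin that boundary.
Ccl3: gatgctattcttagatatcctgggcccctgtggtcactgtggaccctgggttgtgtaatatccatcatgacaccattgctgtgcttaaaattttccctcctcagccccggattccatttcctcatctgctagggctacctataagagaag
Ccl9: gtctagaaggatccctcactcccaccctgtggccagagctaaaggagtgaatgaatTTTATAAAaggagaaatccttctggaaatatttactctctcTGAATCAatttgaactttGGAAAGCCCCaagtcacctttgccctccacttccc
Ccl12: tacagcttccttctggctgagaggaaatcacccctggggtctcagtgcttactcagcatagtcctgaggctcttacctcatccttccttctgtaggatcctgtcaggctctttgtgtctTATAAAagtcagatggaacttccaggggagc
The motifs searched on both strands in the 250 bases before the start were the NF-kB consensus, the AP-1 element TGANTCA, the TATA box TATAAA, the cAMP response element TGACGTCA and the core of the interferon-stimulated response element. Ccl9 held an NF-kB match at -35 to -26 and an AP-1 match at -53 to -47, with overlapping TATA matches from -94 to -87 and another at -224 to -219. Ccl12 held a TATA match at -31 to -26, and Ccl3 and Ccl6 held none of the 5 motifs in this window. Over 32851 promoters of the same length, 7.25% held the NF-kB consensus, 6.75% the AP-1 element, 12.4% the TATA box, 1.55% the cAMP response element and 2.98% the interferon element. A match is a run of letters and not a measured binding site, and elements farther from the start were not searched.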

How the data were processed

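Total RNA of 12 perfused hearts was read from both ends on a HiSeq sequencer. The authors deposited FPKM per gene and library, with gene lengths and coordinates. The submitters' processing notes name HISAT2 and mm10, while the counting tool, the annotation release and any use of strand are not given in the sources used here, so overlapping and antisense genes are uncertain. FPKM times gene length gave whole reads (within 0.05 of a step) for 100% of values, in steps that follow median-of-ratios size factors. There were 0 per-library columns left unused.

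Values were compared with limma 3.58.1 (variance trend) in R 4.3.3 on log2(FPKM + 1), all 4 groups in one fit without covariates. Genes needed the equivalent of 10 reads of a median library in 3 or more libraries, and 15 reads summed over the 12. P-values were adjusted by Benjamini and Hochberg's method, with a threshold of 0.05. Python 3.11.15, pandas 2.3.3 and matplotlib 3.10.9 made tables and plots. The labels call the 3 hearts of a group independent samples. Named are the 10 members, listed genes with an unadjusted p under 0.05 in the contrast described, receptors that bind a member (not all are reported here), and the 5 genes most correlated with Ccl2 and with Ccl6. Marker genes listed to define a sum were named whatever their values, and S100a8 and Chil3 after theirs were seen. Mmp9 and Csf3r were named as the tested neutrophil markers. The members and lists were chosen with earlier results of these data known. Same-numbered libraries deviated together, with all 3 correlations over 0.1, in Slit2-IR against Slit2-non-IR (0.142 to 0.295) and in Slit2-IR against C57-IR hearts (0.154 to 0.362). No shared litter or day is named in the labels, so this pairing rests on the correlations. Alternatives were at least 10 reads in every library, a pseudocount of 0.1, all genes with 1 read, TMM scaling, limma-voom on recovered reads, only the libraries compared, a replicate block and each library left out. The fit without libraries over 5 FPKM of lung markers was chosen after seeing the data. The main fit was first tested on simulated data with independent libraries. The alternative fits were not tested in this way.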

Additional observations from a re-analysis of the deposited data

How the results depend on the processing

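The count of members that passed limma's adjusted threshold for IR in C57BL/6J hearts, 1 in the report, was 2 with a pseudocount of 0.1, 2 with at least 10 reads in every library, 0 without the filter, 0 with limma-voom, 0 with only the libraries compared and 0 to 4 when 1 library was left out. It was 0 to 1 in Slit2-Tg hearts with 1 library left out, where 3 to 5 members had an unadjusted p under 0.05. Over both genotypes it was 3 without the filter, 3 to 5 with 1 library left out and 0 in the 7 libraries, in place of 5. For Slit2-IR against C57-IR, 1 member at an unadjusted p under 0.05 became 0 with the pseudocount of 0.1, 0 without the filter, 0 with at least 10 reads in every library, 0 with limma-voom, 0 with only the libraries compared and 0 to 2 with 1 library left out. Without IR it was 1 in the 7 libraries (Ccl12, where 8.07% of genes were), and for the difference of the responses 0 to 1 with 1 library left out. The cause was not tested.

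The replicate block gave 4 members past the adjusted threshold for IR in C57BL/6J hearts, where 1.12% of genes passed with it and 0.439% without it, and 4 in Slit2-Tg hearts, 3 at an unadjusted p under 0.05 for Slit2-IR against C57-IR, 1 without IR and 1 for the difference of the responses. In C57BL/6J hearts and without IR the numbers paired the libraries in fewer than 3 of 3 pairs, with correlations from 0.0837 to 0.295 and from 0.038 to 0.324.

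The 7 libraries hold 1 of each C57BL/6J group, so what follows for C57BL/6J hearts is a difference between 2 libraries, with no replicate check, and the differences between genotypes rest on 1 C57BL/6J library. Estimates in the 7 libraries had the opposite sign for IR in C57BL/6J hearts, Ccl6 at -0.41 and Ccl9 at -0.45, and for Slit2-IR minus C57-IR, Ccl2 at 0.55, Ccl4 at 0.48, Ccl6 at 0.30, Ccl7 at 0.63, Ccl9 at 0.35, Ccl11 at 0.33, Ccl12 at 0.41 and Ccl24 at 0.072, and for Slit2-non-IR minus C57-non-IR, Ccl6 at 0.031 and Ccl7 at 0.33, and for the difference of the responses, Ccl2 at 0.37, Ccl6 at 0.27, Ccl7 at 0.31, Ccl9 at 0.70 and Ccl24 at 0.16, and for IR over both genotypes, Ccl9 at -0.099. For the difference of the responses, Ccl9 was also at 0.010 with the pseudocount of 0.1 and at 0.00085 with limma-voom. Other log2 fold changes crossed 0 with 1 library left out. For IR in C57BL/6J hearts these were Ccl6 from -0.42 to 0.55, Ccl9 from -0.16 to 0.49 and Ccl12 from -0.32 to 0.53. For IR in Slit2-Tg hearts these were Ccl5 from -0.042 to 0.27 and Ccl9 from -0.22 to 0.25. For Slit2-IR minus C57-IR these were Ccl2 from -0.97 to 0.14, Ccl3 from -0.81 to 0.055, Ccl4 from -0.95 to 0.14, Ccl7 from -0.67 to 0.24, Ccl11 from -0.45 to 0.32 and Ccl12 from -0.82 to 0.028. For Slit2-non-IR minus C57-non-IR these were Ccl2 from -0.40 to 0.45, Ccl3 from -0.034 to 0.69, Ccl6 from -0.55 to 0.22, Ccl7 from -0.48 to 0.19, Ccl11 from -0.25 to 0.27, Ccl12 from -0.0089 to 0.69 and Ccl24 from -0.55 to 0.23. For the difference of the responses these were Ccl2 from -1.01 to 0.095, Ccl7 from -0.56 to 0.35, Ccl9 from -0.44 to 0.21, Ccl11 from -0.46 to 0.31 and Ccl24 from -0.78 to 0.15. For IR over both genotypes these were Ccl6 from -0.45 to 0.031 and Ccl9 from -0.078 to 0.27. Depth limits Ccl5, with at most 24 reads in a library.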
